A study of Mus musculus with 18 samples.

Results

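The transcripts described are those of 10 integrin chains, Itga1, Itga3, Itga4, Itga6, Itga8, Itga11, Itgav, Itgb3, Itgb5 and Itgb8. They were found by matching the Ensembl identifiers of the count table to these gene symbols, and 10 of 10 were present among the 55487 gene rows. RNA sequencing was done on embryonic mouse fibroblasts (MEFs) after 24 h in full medium without added uracil (control) or with 10 µM or 30 µM uracil. The labels number the 6 libraries of each of the 3 doses from 1 to 6, so each number holds 1 library of every dose, 18 in all. The labels give no genotype or strain for the MEFs, and they do not say whether a number marks a culture, a cell preparation or a day. The study's methods call the samples of a dose biological replicates.

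Integrins are cell-surface receptors made of an α and a β chain that join the extracellular matrix to the actin cytoskeleton, and the pair of chains sets which matrix protein is bound. In fibroblasts, chains that pair with β1 bind collagens (α1, α11), laminins (α3, α6) and fibronectin or related proteins (α4, α8), whereas αv pairs with several β chains, among them β3, β5 and β8, to bind vitronectin, fibronectin and the latent form of TGFβ. The main fibronectin receptor, α5β1, is not among the chains described here.

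Of 10 fibroblast markers, 10 averaged at least 1 CPM (counts scaled to a common library size, with TMM factors), and 0 were at zero in all libraries. Markers of other cell types summed to less. Of 5 endothelial, 6 macrophage and blood and 5 neural markers, 2, 1 and 1 averaged 1 CPM or more. They summed to 7.29 to 11.8, 1.39 to 5.85 and 19.1 to 46.4 CPM per library. Of 5 mesothelial, 6 epithelial and 5 muscle markers, 4, 2 and 2 averaged 1 CPM or more. They summed to 27.5 to 175, 4.58 to 34.9 and 2.57 to 13.97 CPM. The mesothelial marker Msln had a median of 53.3 CPM. This was above the fibroblast markers Pdgfra (34.6), Thy1 (43.6) and Lum (3.27) and below the rest of the fibroblast list. The fibroblast markers summed to 25671 to 29933 CPM in the 15 libraries described next. They summed to 28607 CPM in 10 µM number 6, 39380 in control number 1 and 57307 in 30 µM number 6. Counts assigned to genes ranged from 11.6 M to 20.8 M in 15 libraries, with 1.72% to 3.59% of read pairs unaligned. The 3 other libraries stood apart. Control number 1 had 3.96 M counts and 54.2% unaligned pairs, 30 µM number 6 had 7.39 M and 37.9%, and 10 µM number 6 had 14.7 M and 5.24%. Tests were therefore run on all 18 libraries and again on the 15 left without these 3.

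All 10 chains were expressed above the filter on low counts. Since read counts grow with transcript length, levels of different genes were compared as CPM per kb of merged exons. Itgav, the α chain shared by the vitronectin receptors, had the highest level at 40.5 ± 7.38 CPM per kb (SD, n = 18 libraries), followed by Itgb5, one of its partners, at 35.8 ± 4.93. Itga3, a laminin receptor chain, and Itga11, a receptor chain for fibrillar collagen, stood at 17.7 ± 5.09 and 16.8 ± 3.21 CPM per kb. Itgb3 (5.82 ± 1.13) and Itga6 (4.16 ± 0.478) formed the middle of the order. Itgb8 (1.09 ± 0.226), Itga8 (0.856 ± 0.298), Itga1 (0.649 ± 0.304) and Itga4 (0.525 ± 0.115) were lowest. Neighbours in this order overlapped in their ranges over the libraries, except at 2 steps. The lowest Itga11 library (11.1 CPM per kb) lay above the highest Itgb3 library (8.28), and the lowest Itga6 library (3.70) lay above the highest Itgb8 library (1.62). Of the 7 overlapping pairs, 2 turned with the length used. Per kb of the canonical transcript, an alternative chosen after the values were seen, Itgb5 (75.9 ± 10.5) came before Itgav (67.6 ± 12.3), and Itga6 (10.7 ± 1.23) before Itgb3 (6.66 ± 1.29). In the 15 libraries, per kb of merged exons, Itga11 (16.5 ± 3.43) came just before Itga3 (16.4 ± 3.12).

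**Figure D1:**
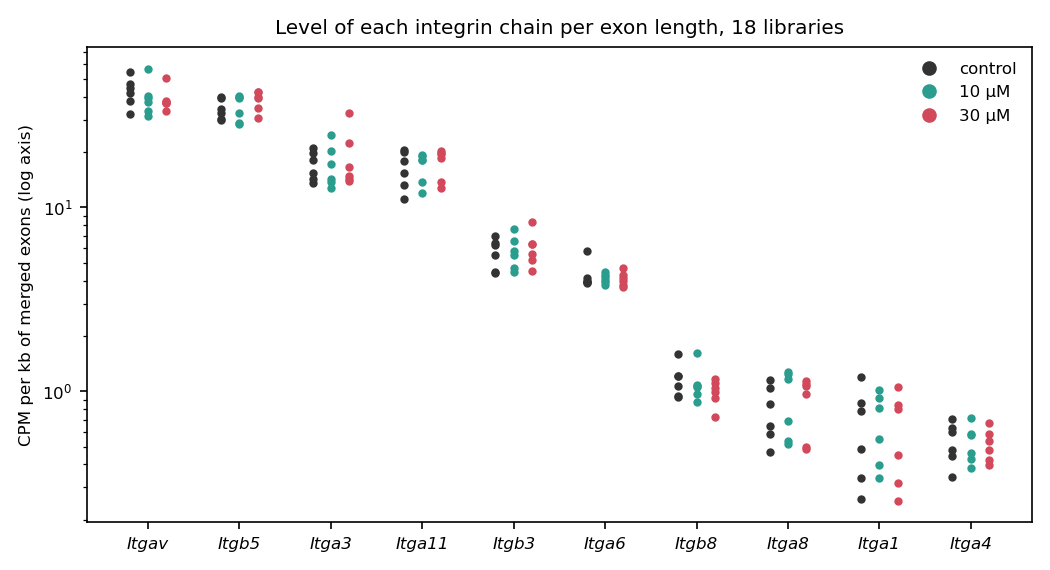
Level of each of the 10 integrin chains as CPM per kb of merged exons (vertical log axis), 1 point per library, coloured by uracil dose. Itgav and Itgb5 lie highest, Itga4 lowest, and within each chain the points of the 3 doses overlap.

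Of the β chains that can pair with αv, the 3 described here were set against each other on the same per-length scale. Other β chains, among them Itgb1 at 1073 to 1366 CPM per library, were left out. Itgb5 made up 83.7% ± 3.00 of the sum of these 3, Itgb3 13.7% ± 2.68 and Itgb8 2.59% ± 0.706 (SD, n = 18 libraries). The share of Itgb3 averaged 13.8% ± 2.48 in the control libraries, 14.03% ± 3.63 at 10 µM and 13.3% ± 2.17 at 30 µM (SD, n = 6 each). These differences were inside the spread of each dose, which includes the differences between replicate numbers. In the 15 libraries they were 84.4% ± 2.25 (Itgb5), 13.2% ± 2.10 (Itgb3) and 2.40% ± 0.422 (Itgb8). With the canonical transcript lengths the shares were 90.2% (Itgb5), 8.0% (Itgb3) and 1.77% (Itgb8), in the same order. These are shares of transcript, not of protein at the cell surface.

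The question the doses address is whether extracellular uracil changes the transcripts of matrix receptors. For these 10 chains no change with dose was detected. In the quasi-likelihood test of edgeR, 0 of 10 chains passed an adjusted p of 0.05 for 10 µM against control, for 30 µM against control, for 30 µM against 10 µM or for any difference among the doses. The background was the same, with 0.0% of the 13865 genes tested past the threshold in each of these comparisons. At an unadjusted p under 0.05 there were 0 of the 10 chains in each comparison, beside 96, 595, 323 and 212 of the 13865 genes in the order given. Each of these is a smaller share than the 0.05 expected where nothing differs, so the 0 chains cannot show an absence of change. With replicate number added to the edgeR model as a block, the counts were 161, 937, 588 and 386 genes and 0 of the 10 chains. DESeq2 also called 0 chains and 0 genes. The median log2 fold change of the 10 chains was 0.015 at 10 µM and 0.037 at 30 µM against control, where that of all genes was 0.0059 and 0.012. The contrasts against control share the same 6 control libraries. The fits without the block have no term for number. Their errors, and the ranges and SDs of each dose given below, therefore include the differences between numbers.

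Itgb5 had the smallest p of the 10 chains for 30 µM against control. Its lowest, median and highest levels were 209.8, 236, and 281 CPM in control libraries, 202, 253 and 286 CPM at 10 µM and 217, 280 and 298 CPM at 30 µM. The 3 ranges overlapped over most of their width. The log2 fold change was 0.16 ± 0.11 (SE; 95% interval −0.075 to 0.39; adjusted p = 0.934, edgeR) at 30 µM and 0.025 ± 0.11 (interval −0.21 to 0.26) at 10 µM.

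Itgav ranged from 396 through a median of 533 to 669.8 CPM in control libraries, from 386 through 474 to 700.5 CPM at 10 µM, and from 414 through 459 to 622 CPM at 30 µM. The highest value of each dose came from one of the 3 libraries that stood apart, and the doses overlapped with and without them. Its log2 fold change at 30 µM was −0.14 ± 0.14 (SE; 95% interval −0.44 to 0.15; adjusted p = 0.941, edgeR), and −0.16 ± 0.090 (interval −0.35 to 0.028; adjusted p = 0.944) in the 15 libraries. At 10 µM it was −0.11 ± 0.14 with all libraries and −0.17 ± 0.090 (interval −0.36 to 0.023) with 15.

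Itgb8, whose product with αv activates latent TGFβ, ranged from 10.4 through 12.8 to 18.05 CPM in control libraries, from 9.83 through 11.9 to 18.3 CPM at 10 µM and from 8.21 through 11.5 to 13.1 CPM at 30 µM. These ranges overlapped, and the log2 fold change at 30 µM was −0.20 ± 0.16 (SE; 95% interval −0.53 to 0.12; adjusted p = 0.934, edgeR). Itgb3, another αv partner, averaged 37.5 ± 7.11 CPM (SD, n = 6 libraries) without uracil, 38.2 ± 7.85 with 10 µM and 39.9 ± 8.64 with 30 µM, with a log2 fold change of 0.077 ± 0.16 at 30 µM.

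Among the collagen receptor chains, Itga1 had 5.55, 13.5 and 25.6 CPM as its lowest, median and highest control values, 7.23, 14.5 and 21.6 CPM at 10 µM and 5.42, 13.4 and 22.6 CPM at 30 µM. Each dose thus held nearly the whole range of the gene. Its log2 fold change at 30 µM was −0.0021 ± 0.41 (SE; 95% interval −0.87 to 0.87) in the fit on dose, which has no term for number and so counts the spread between numbers as error. Itga11 averaged 101 ± 23.4 CPM (SD, n = 6 libraries) without uracil, 103 ± 18.7 with 10 µM and 107 ± 20.2 with 30 µM, and its log2 fold change at 30 µM was 0.085 ± 0.16.

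The laminin receptor chain Itga3 had 78.9, 97.6 and 122 CPM as its lowest, median and highest control values, 74.6, 91.4 and 144 CPM at 10 µM and 80.5, 91.3 and 191 CPM at 30 µM. The medians differed by less than the SD of any dose, and the highest values at both uracil doses were those of number 6. The log2 fold change at 30 µM was 0.16 ± 0.21 (SE; 95% interval −0.29 to 0.61) with all libraries and −0.089 with the 15. The 15 hold no control library of number 1 and no uracil library of number 6. With number as a block in the 15 libraries, the Itga3 change was 0.027, the direction found with all libraries. Itga1 (0.32), Itga6 (0.041) and Itgb3 (−0.090) also turned their direction at 30 µM in the 15 libraries without the block, each with an interval that crossed 0. With the block in the same libraries these changes were −0.0080, −0.0098 and 0.014, again in the direction found with all libraries. Itga6, the other laminin chain, averaged 48.8 ± 8.50 CPM (SD, n = 6 libraries) without uracil, 46.7 ± 2.81 with 10 µM and 46.6 ± 4.12 with 30 µM. It had the narrowest interval of the 10, a log2 fold change of −0.054 ± 0.090 at 30 µM (95% interval −0.24 to 0.13).

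The remaining α chains, Itga4 and Itga8, had few counts. Itga4, a receptor chain for VCAM-1 and fibronectin, averaged 8.95 ± 2.27 CPM (SD, n = 6 libraries) without uracil, 8.77 ± 2.07 with 10 µM and 8.64 ± 1.75 with 30 µM. Itga8, a receptor chain for nephronectin, averaged 8.53 ± 2.91, 9.74 ± 3.88 and 9.45 ± 3.26 CPM in the same order. Their log2 fold changes at 30 µM were −0.045 ± 0.18 and 0.16 ± 0.30 (SE) in the fit on dose, which counts the spread between numbers as error. With number as a block in the 15 libraries they were −0.029 ± 0.11 and 0.079 ± 0.11.

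**Figure D2:**
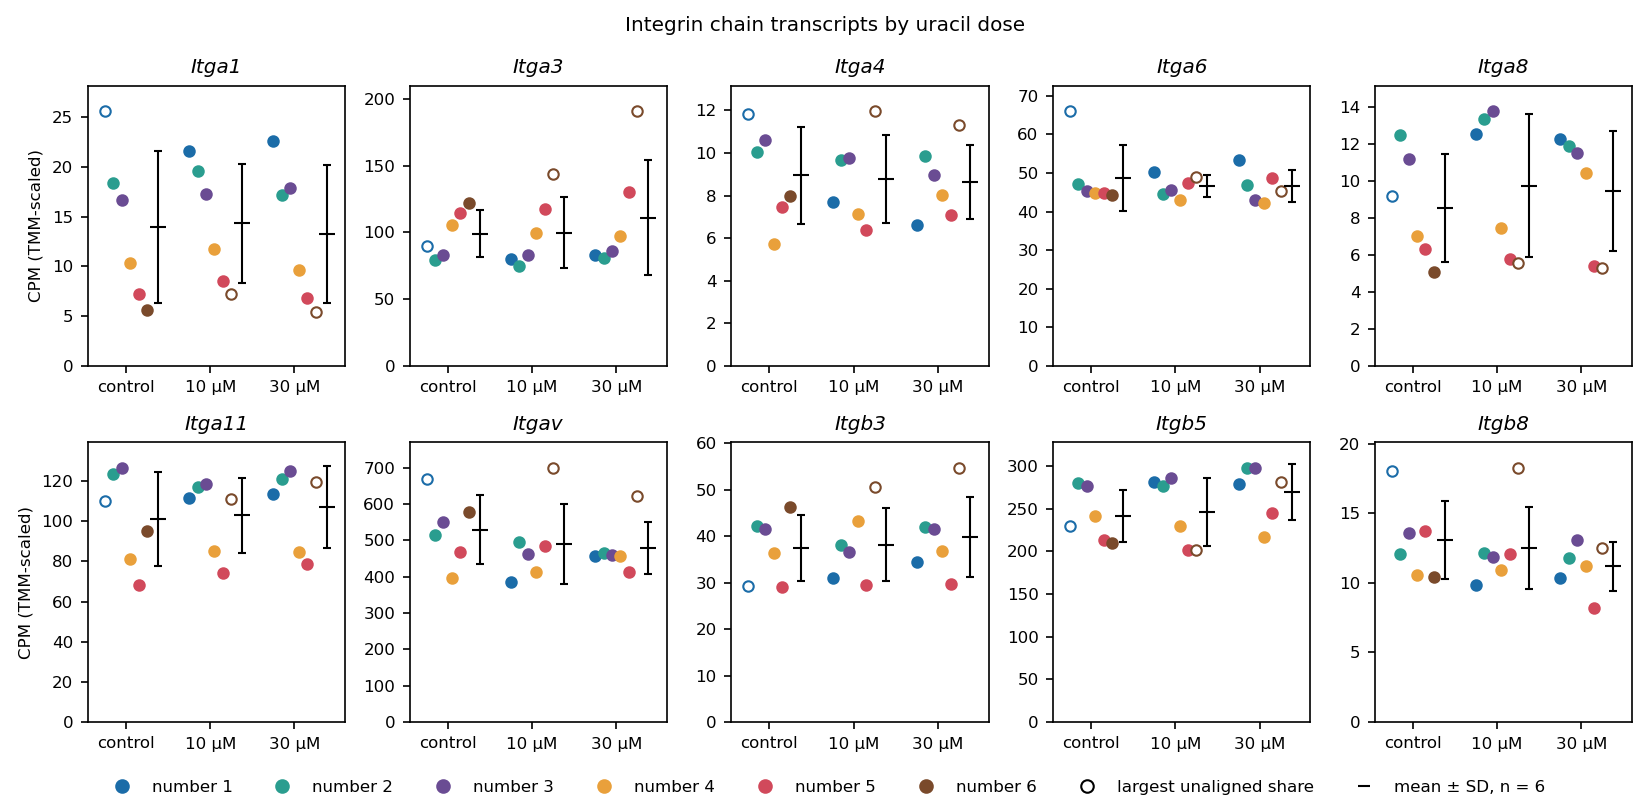
CPM (TMM-scaled, vertical axis from 0) of the 10 chains in each library by uracil dose, coloured by replicate number, with the mean ± SD of 6 libraries beside each dose. Open circles are the 3 libraries with the largest unaligned share. In every panel the 3 doses overlap, and in Itga1 the colours keep nearly the same order at each dose.

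**Figure D3:**
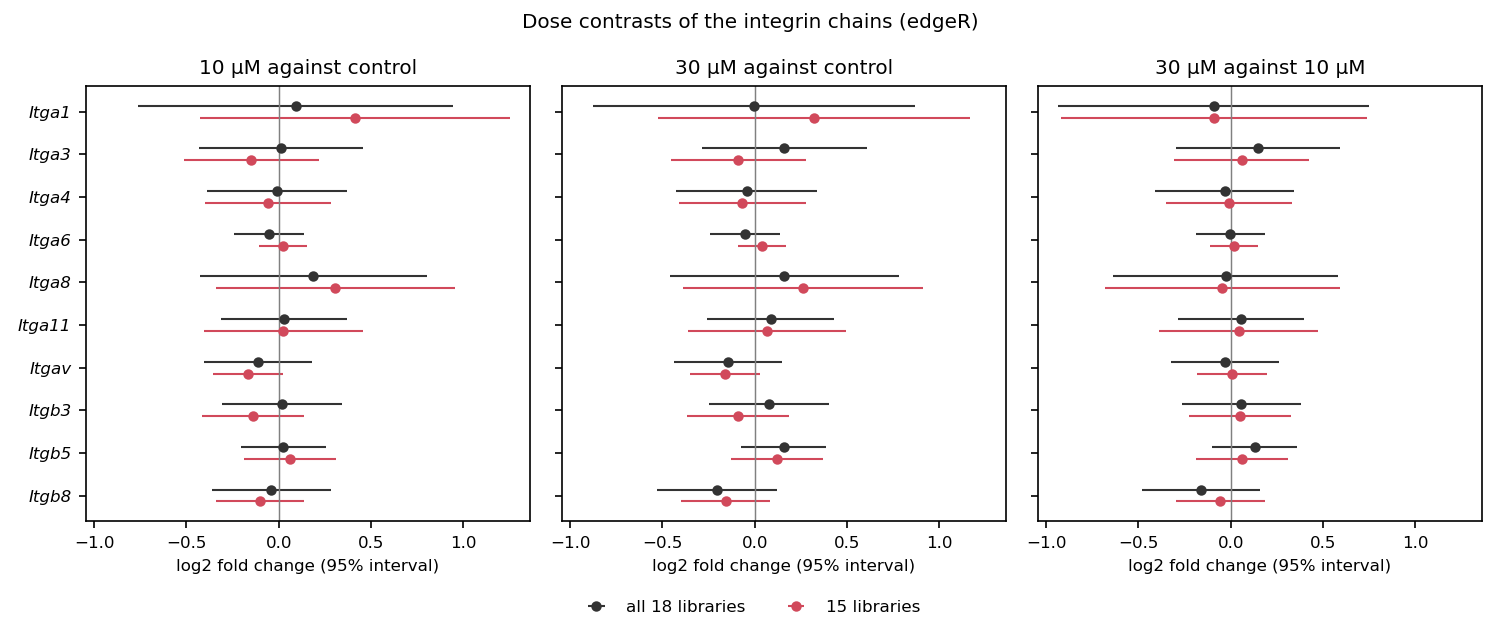
Log2 fold change of each chain (points) with its 95% interval (lines) for the 3 dose contrasts, from edgeR with all 18 libraries (dark) and with 15 (red). Every interval crosses 0, and those of Itga1 and Itga8 are the widest in these fits, which have no term for number.

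For each chain but Itgb8 the replicate number took far more of the spread than the dose did. Of the variance of log2 CPM over the 18 libraries, number took 97.2% for Itga1, 94.1% for Itga11, 91.4% for Itga8, 90.0% for Itgb3 and 88.4% for Itga3, and between 15.1% (Itgb8) and 69.3% (Itga6) for the other 5 chains. The median over all genes tested was 40.8%. Dose took between 0.201% (Itga4) and 12.5% (Itgb5), where the median of all genes was 7.91%. Number has 6 levels and dose 3, so the former takes more of the variance by construction.

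**Figure D4:**
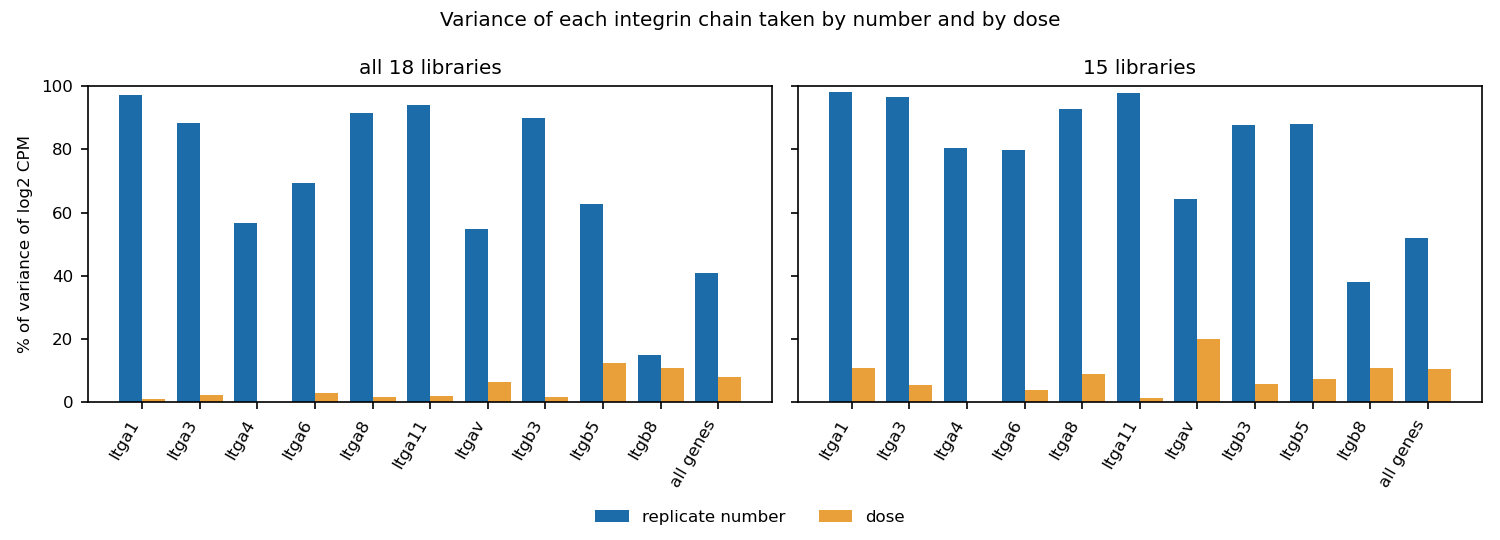
Percent of the variance of log2 CPM taken by replicate number (blue) and by dose (orange) for each chain, and the median of all genes tested, with all 18 libraries on the left and 15 on the right. Number takes at least 87.6% for Itga1, Itga3, Itga8, Itga11 and Itgb3 in both panels. In the right panel the numbers are unequally filled, so the 2 shares overlap.

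In a model with dose and number, 6 of the 10 chains differed among the numbers at an adjusted p of 0.05 (edgeR), where 12.6% of all genes tested did (1745 of 13865). With the 15 libraries these were 7 of the 10 chains, beside 20.8% of all genes (2890 of 13888). The chains past the threshold were the collagen receptor chains Itga1 and Itga11, the laminin chain Itga3, the nephronectin receptor chain Itga8 and the αv partners Itgb3 and Itgb5, to which the 15 libraries added Itga4. DESeq2 called 9 of the 10 chains, beside 21.6% of all genes (2989 of 13865).

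The sequence before the transcription start is shown for the 4 α chains with the widest differences among numbers, since in the 15 libraries Itga1, Itga8 and Itga11 were higher in every library of numbers 1 to 3 than in those of 4 to 6, and Itga3 lower. Each line gives 250 bases before a RefSeq start on GRCm38.p6, 5′ to 3′ on the strand of the gene, with capitals marking a GC box (GGGCGG or its complement CCGCCC).
Itga1 (chr13:115101965-115102214, minus strand): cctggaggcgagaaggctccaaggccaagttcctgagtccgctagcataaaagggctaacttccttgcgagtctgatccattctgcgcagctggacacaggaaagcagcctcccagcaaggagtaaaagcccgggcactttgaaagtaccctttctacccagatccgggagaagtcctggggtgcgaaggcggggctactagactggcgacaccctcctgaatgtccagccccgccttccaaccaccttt
Itga8 (chr2:12301945-12302194, minus strand): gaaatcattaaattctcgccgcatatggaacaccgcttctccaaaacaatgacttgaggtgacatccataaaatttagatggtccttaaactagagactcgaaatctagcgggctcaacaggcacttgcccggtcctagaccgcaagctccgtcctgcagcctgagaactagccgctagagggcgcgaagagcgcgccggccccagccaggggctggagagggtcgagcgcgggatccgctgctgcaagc
Itga11 (chr9:62677605-62677854, plus strand): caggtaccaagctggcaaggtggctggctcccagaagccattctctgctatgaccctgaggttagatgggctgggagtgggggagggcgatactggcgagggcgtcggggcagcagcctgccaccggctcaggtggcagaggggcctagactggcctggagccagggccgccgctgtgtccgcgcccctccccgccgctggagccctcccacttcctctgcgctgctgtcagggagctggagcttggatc
Itga3, first of 2 starts (chr11:95076715-95076964, minus strand): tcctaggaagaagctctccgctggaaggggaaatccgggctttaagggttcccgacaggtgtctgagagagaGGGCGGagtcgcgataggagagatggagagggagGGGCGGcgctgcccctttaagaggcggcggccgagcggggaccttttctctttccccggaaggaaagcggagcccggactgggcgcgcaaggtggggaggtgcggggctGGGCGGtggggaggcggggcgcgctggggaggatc

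The GC content of these windows was 57.6% for Itga1, 56.4% for Itga8, 68.4% for Itga11 and 67.6% for Itga3, where the median of 32851 promoters was 52.4%. The Itga3 window shown held 3 GC boxes and the other 3 held 0, and 32.7% of all promoters held at least 1. The window of the second Itga3 start, not shown, had 50.8% GC and 1 GC box. Which start these cells use was not tested. RefSeq gave windows for 8 of the 10 chains (9 windows). Searched on both strands, 0 of the 9 held the TATA box letters TATAAA, which 12.4% of all promoters held. The same was true of the AP-1 letters TGANTCA (6.75% of all promoters), of the TEAD letters GGAATG (12.6%) and of the E-box letters CACGTG (6.02%). These matches describe letters in a window and say nothing of the factors.

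Itga1 had the widest spread among the numbers. In number 1 it measured 25.6, 21.6 and 22.6 CPM (control, 10 µM and 30 µM, the order used for all values by number below), in number 2 18.4, 19.6 and 17.2 and in number 3 16.6, 17.3 and 17.9 CPM. In number 4 it measured 10.3, 11.7 and 9.65 CPM, in number 5 7.18, 8.51 and 6.80 CPM, and in number 6 5.55, 7.23 and 5.42 CPM. The libraries of number 1 were thus all above those of every other number, and no library of numbers 4 to 6 reached any of numbers 1 to 3. The fitted log2 range between the highest and lowest number was 1.91 (adjusted p = 1.10e-07, edgeR). Itga1 overlaps Pelo, a ribosome rescue factor gene on the same strand, and Mocs2, a molybdenum cofactor gene on the opposite strand that shares exon sequence with it. Itga1 also shares exon sequence with Gm49395, a protein-coding gene on the same strand, whose level is not given here. The number means of Pelo lay between 11.2 and 12.9 CPM and those of Mocs2 between 23.5 and 30.9 CPM, narrower ranges than that of Itga1.

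Itga8 measured 9.16, 12.5 and 12.3 CPM in number 1, where number 2 had 12.5, 13.4 and 11.9 and number 3 11.2, 13.8 and 11.5 CPM. In number 4 it measured 7.02, 7.43 and 10.4 CPM, in number 5 6.30, 5.79 and 5.38 CPM and in number 6 5.05, 5.56 and 5.26 CPM. Numbers 5 and 6 lay below all other numbers, and number 4 reached into the range of number 1 only through control number 1, one of the libraries that stood apart. The log2 range was 1.25 (adjusted p = 4.86e-05, edgeR).

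Itga11 measured 110.2, 112 and 114 CPM in number 1, where number 2 had 124, 117 and 121 and number 3 127, 119 and 125 CPM. In number 4 it measured 81.4, 85.0 and 84.5 CPM, in number 5 68.5, 74.1 and 78.6 CPM and in number 6 95.2, 111 and 119.6 CPM. Numbers 4 and 5 were below the rest, while number 6 overlapped numbers 1 to 3 through the 2 uracil libraries that stood apart. The log2 range was 0.75 (adjusted p = 2.00e-05, edgeR).

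Itga3 went the other way from Itga1. In number 1 it measured 89.7, 80.3 and 82.7 CPM, in number 2 78.9, 74.6 and 80.5 and in number 3 82.8, 83.0 and 85.7 CPM. In number 4 it measured 105.5, 99.7 and 96.9 CPM, in number 5 115, 118 and 130.0 CPM and in number 6 122, 144 and 191 CPM. The lowest library of numbers 4 to 6 (96.9 CPM) was above the highest of numbers 1 to 3 (89.7 CPM). The log2 range was 0.95 (adjusted p = 9.45e-05, edgeR), and 0.66 in the 15 libraries. The log2 ratio of Itga1 to Itga3 averaged −1.86 ± 0.045 in number 1 and −4.64 ± 0.44 in number 6 (SD, n = 3 each).

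Of the αv partners, Itgb3 measured 29.4, 31.0 and 34.4 CPM in number 1, where number 5 had 29.1, 29.5 and 29.6 and number 6 46.3, 50.6 and 54.8 CPM. Number 6 was above every other library, and numbers 2, 3 and 4 lay between 36.4 and 43.2 CPM. The log2 range was 0.78 (adjusted p = 3.30e-04, edgeR). The share of Itgb3 in the sum of Itgb3, Itgb5 and Itgb8 was 18.5% ± 1.73 in number 6 and 11.1% ± 0.665 in number 1 (SD, n = 3 each).

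Itgb5 had number means between 220 ± 22.4 CPM (number 5) and 287 ± 10.7 CPM (number 3) (SD, n = 3 each). Its log2 range was 0.38 (adjusted p = 0.0443, edgeR), and this call was lost in 13 of the 18 fits that left out 1 library, with adjusted p up to 0.153. In the 15 libraries its adjusted p was 2.70e-05.

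Itga4, Itga6, Itgav and Itgb8 did not pass the threshold for number with all libraries, at adjusted p of 0.125, 0.0883, 0.117 and 0.783 (edgeR). Itga4 passed with the 15 libraries (adjusted p = 0.0069), where its mean was 9.85 ± 0.188 CPM (SD, n = 3) for number 2 and 6.96 ± 1.16 for number 4. Itgav averaged 422 ± 32.2 CPM (SD, n = 3) for number 4 and 634 ± 61.9 for number 6. Number means of Itgb8 lay between 10.9 and 13.7 CPM, within the spread of its libraries.

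**Figure D5:**
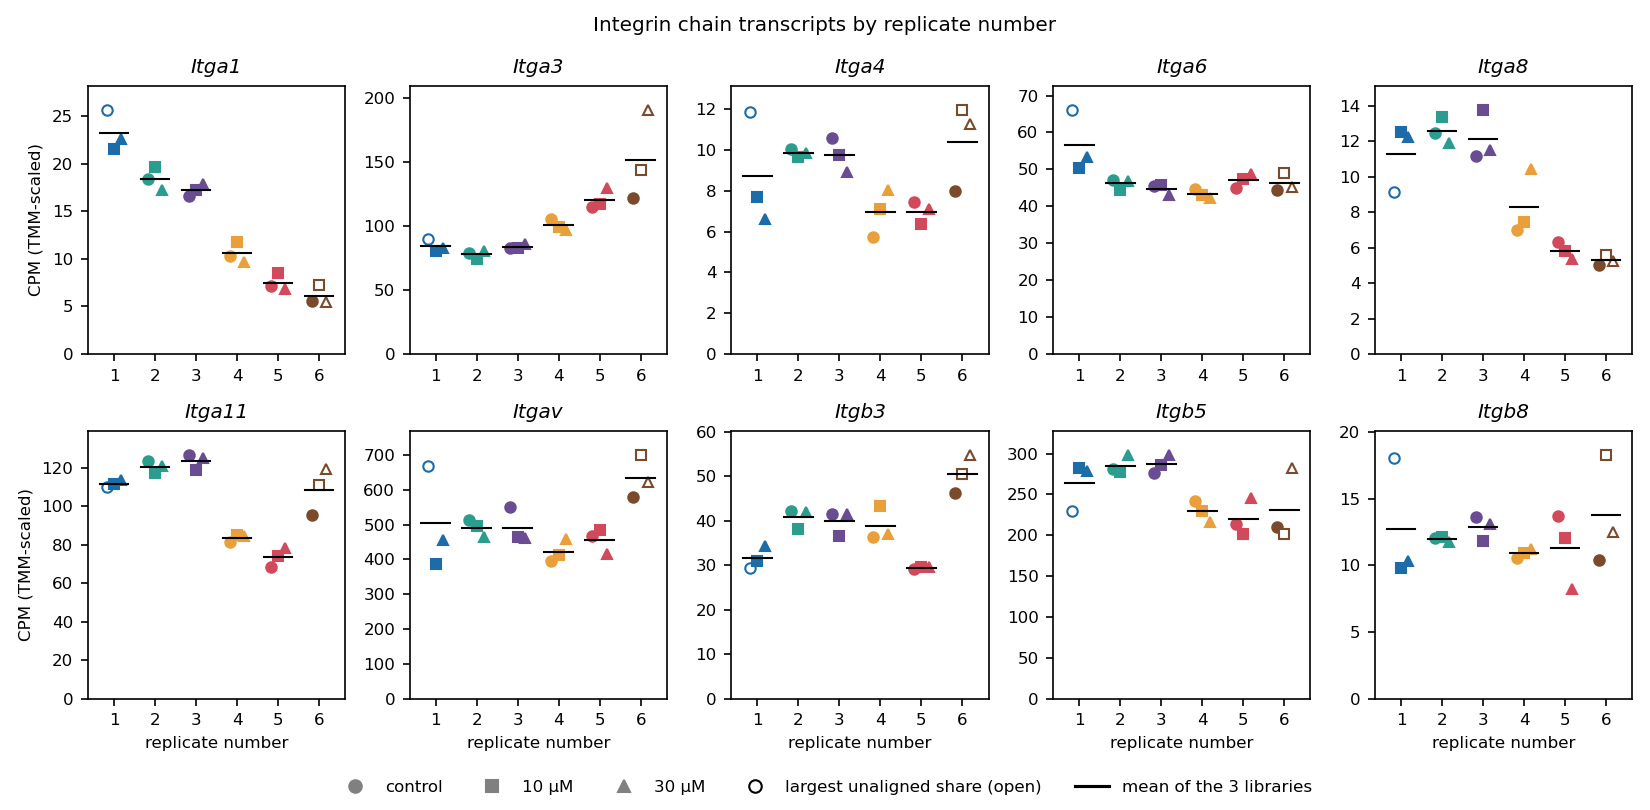
CPM (TMM-scaled, vertical axis from 0) of the 10 chains by replicate number, 1 symbol per library with the shape giving the dose, and lines for the mean of 3 libraries. Open symbols are the 3 libraries with the largest unaligned share. Numbers 1 to 3 lie above numbers 4 to 6 for Itga1 and below them for Itga3.

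The division between numbers 1 to 3 and 4 to 6 was noticed after the values were seen and is given as a description. With all libraries the 2 sets did not overlap for 2 of the 10 chains (Itga1 and Itga3), where 3.81% of all genes had sets that did not overlap. With 15 libraries this held for 5 of the 10 (Itga1, Itga3, Itga8, Itga11 and Itgb5), beside 7.49% of all genes. Other measures divided in the same way. Read pairs under the alignment quality limit made up 4.79% to 7.17% in numbers 1 to 3 and 7.76% to 13.1% in numbers 4 to 6. The summed level of 5 mesothelial markers, of which 4 averaged at least 1 CPM and 0 were at zero throughout, was 27.5 to 48.0 CPM in numbers 1 to 3 and 102 to 175 CPM in numbers 4 to 6. That of 6 epithelial markers (2 at 1 CPM or more) was 4.58 to 8.13 and 15.3 to 34.9 CPM, and that of 5 muscle markers (2 at 1 CPM or more, Myod1 at zero in all libraries) was 9.16 to 13.97 and 2.57 to 6.41 CPM. The part of these measures in the integrin values was not tested. In bulk RNA, fewer cells of one type and less RNA per cell cannot be told apart.

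The genes whose levels followed a chain most closely over the 15 libraries were found by the root mean square difference of centred log2 CPM among 13027 genes. The 10 chains and the list of other integrin chains given below were left out, so no integrin chain of these could appear. Closest to Itga1 were Rspo2, a secreted enhancer of Wnt signalling (0.134), Tbx4, a transcription factor of hindlimb and lung mesenchyme (0.143), and Mfap5, a microfibril protein (0.152), where Itga1 itself had a root mean square of 0.637. Closest to Itga8 (0.500) were Ccdc80 (0.155), the protocadherin Pcdh7 (0.157) and Cthrc1 (0.164). Closest to Itga11 (0.303) were Col11a1, a chain of a fibrillar collagen (0.0635), Thbs1, encoding thrombospondin-1 (0.0885), and Masp1 (0.0931). Over all 18 libraries the 3 nearest were Mustn1, Tbx4 and Kctd12 for Itga1, Ccdc80, Dkk2 and Pcdh7 for Itga8, and Thbs1, Col11a1 and Tnc for Itga11. In the 15 libraries, Rspo2 averaged 216 CPM for number 1 (n = 2) and measured 67.6 CPM in control number 6, the 1 library left of that number. Itga1 had 22.1 and 5.55 CPM in the same libraries.

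Of 16 other integrin chains, 8 passed the filter on low counts, and 4 of these 8 differed among the numbers (edgeR, adjusted p of 0.05), namely Itga2, Itga9 and Itgb4, with log2 ranges of 1.26, 1.03 and 0.77, and Itgb1, the partner of most α chains here, with 0.31. Itgb1 averaged 1094 ± 23.2 CPM (SD, n = 3) for number 5 and 1356 ± 13.5 for number 2. Of 30 integrin ligands, 14 of the 26 tested differed, led by the laminin chain Lama4 (log2 range 2.07), Postn, encoding periostin (1.58), and Edil3, a ligand of αv integrins (1.45). Lama4 averaged 82.1 CPM for number 2 against 19.6 for number 6. Of 32 adaptor and signalling genes, 2 of the 30 tested differed, the tetraspanin gene Cd151 and Bcar1, which encodes p130Cas. These counts stand beside 12.6% of all genes. With the 15 libraries they were 5, 17 and 8, beside 20.8% of all genes. None of the 3 lists had a gene past the threshold in a dose contrast with either set of libraries.

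On GRCm39 (GENCODE M39) the α chain genes lie at chr13:115089632-115238677 (Itga1), chr11:94935296-94967682 (Itga3), chr2:79085660-79163467 (Itga4), chr2:71575960-71689757 (Itga6), chr2:12110900-12307214 (Itga8), chr9:62585108-62691617 (Itga11) and chr2:83554403-83637260 (Itgav). The β chain genes lie at chr11:104498826-104561302 (Itgb3), chr16:33649988-33771137 (Itgb5) and chr12:119121748-119202584 (Itgb8). All 7 α chain genes share exon sequence with a gene on the opposite strand, and the strand setting of the counting is not given in the sources used here, so their counts may hold reads of those genes.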

How the data were processed

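RNA of 18 MEF samples was measured as stranded, ribosome-depleted total RNA, read as paired ends. The authors deposited raw counts (whole read pairs for each mouse Ensembl identifier), not normalised. The submitters' processing notes name FastQC, HISAT2, SAMtools 1.2, HTSeq and the human build GRCh38, although every row is a mouse identifier. The mouse build, annotation release and strand setting are not given in the sources used here. The study left out 1 control and 1 30 µM sample for human RNA, and the labels do not say which, so none was dropped from the main analysis. The libraries with the largest unaligned share, control number 1 (54.2%) and 30 µM number 6 (37.9%), are of these doses. Whether they are the samples left out was not tested. HTSeq's 5 closing entries (unassigned pairs) stayed out of library sizes and tests. All 18 columns matched a sample.

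Groups came from the titles. GENCODE M39 named 51731 of 55487 identifiers. In R 4.3.3, edgeR 4.0.16 kept 13865 genes by filterByExpr, scaled by TMM, and fitted robust quasi-likelihood models over all genes with dose (contrasts), or dose and number, with two-sided tests and Benjamini-Hochberg adjustment. Log2 CPM used a prior count of 2. Alternatives were DESeq2 1.42.0, library totals alone, no filter, at least 10 counts in every library, each library left out, the 2 or 3 libraries with the largest unaligned share left out, and number as a block. Tested on simulated data, 49.5%, 83.5% and 92.0% of 200 genes changed 1.5, 2 and 3-fold were recovered for 30 µM against control (13771 to 13773 genes), and 4.5%, 57.0% and 79.5% for number (13755 to 13778 genes). For number, the genes were changed in number 5 only. The simulated spread came from a fit on dose alone, which counts differences between numbers as spread. The recovery for number therefore does not describe the test with dose and number on the data. Intervals are from the edgeR fit. The 10 chains and the gene lists were chosen with earlier results of these data known. Named besides the chains are the 3 nearest genes, integrin chains left out, of the 3 chains with the widest number range in the 15 libraries. Up to 3 genes past the threshold per list are also named.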

Additional observations from a re-analysis of the deposited data

Results flagged for a closer look

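In each dose and chain, the highest and lowest of the 6 libraries were compared with the rest by Dixon's ratio. Of 30 groups tested, 4 held a library far from the others, where chance gives about 1 in 20 groups, or 1.5 here. Itga6 measured 66.0 CPM in control number 1, with the other control libraries at 44.3 to 47.2 CPM. Itgav measured 700.5 CPM in 10 µM number 6, against 386 to 496 CPM in the other libraries of that dose, and 622 CPM in 30 µM number 6, against 414 to 465 CPM. Itgb8 measured 18.3 CPM in 10 µM number 6, against 9.83 to 12.1 CPM. All 4 lie in the 3 libraries with the largest unaligned share, and the part of that measure in these values was not tested.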

How the results depend on the processing

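No setting brought a chain past an adjusted p of 0.05 in a dose contrast, and 0 of 270 tests of the chains per contrast had an unadjusted p under 0.05. The smallest was 0.0508, for Itgb5 at 30 µM against control in edgeR with number as a block. It was 0.364 with the block and without the 3 libraries with the largest unaligned share. Direction was less stable. Of 240 log2 fold changes under settings other than leaving out 1 library, 32 changed sign, and the cause was not tested.

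Without the 3 libraries with the largest unaligned share, the log2 fold changes at 10 µM against control became −0.15 for Itga3, 0.025 for Itga6 and −0.14 for Itgb3. At 30 µM against control they became 0.32 for Itga1, −0.089 for Itga3, 0.041 for Itga6 and −0.090 for Itgb3, and for 30 µM against 10 µM 0.016 for Itga6 and 0.0058 for Itgav. Without the 2 with the most, they became −0.010 for Itga3, 0.056 for Itga4, 0.045 for Itga6, −0.034 for Itgb3 and 0.046 for Itgb8 at 10 µM. At 30 µM they became 0.33 for Itga1, −0.086 for Itga3, 0.045 for Itga6 and −0.086 for Itgb3, and between the uracil doses 0.043 for Itga1, −0.075 for Itga3, 0.071 for Itga8 and −0.052 for Itgb3. With no filter, Itga4 at 10 µM became 0.0033 and Itga1 at 30 µM 0.019, and with DESeq2, Itga6 between the uracil doses became 0.00061.

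Same-numbered libraries deviated together in 16 of 18 pairs (correlation over 0.1; lowest −0.10, highest 0.71), and 14 of 18 libraries correlated best with their own number, a hint from the data and not the design. The pairs under 0.1 were those of control number 1 with 10 µM number 1 (−0.10) and with 30 µM number 1 (−0.034). With number as a replicate block, 0 of 10 chains passed in any dose contrast, and Itga3 at 10 µM became −0.010. With the block and without the 3 libraries, the changes at 10 µM became −0.030 for Itga3, −0.0069 for Itga11, −0.035 for Itgb3 and −0.021 for Itgb5, and between the uracil doses 0.016 for Itga6 and 0.012 for Itgav. In that fit every chain kept the direction of the main fit at 30 µM against control. The change of Itga1 at 30 µM was −0.0080 ± 0.080 (SE; 95% interval −0.17 to 0.16).

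Leaving out 1 library at a time, the log2 fold changes at 10 µM ranged from −0.075 to 0.29 for Itga1, −0.12 to 0.082 for Itga3, −0.11 to 0.068 for Itga4, −0.076 to 0.040 for Itga6, −0.054 to 0.11 for Itga11, −0.076 to 0.087 for Itgb3, −0.022 to 0.081 for Itgb5 and −0.17 to 0.043 for Itgb8. At 30 µM they ranged from −0.22 to 0.19 for Itga1, −0.059 to 0.25 for Itga3, −0.15 to 0.023 for Itga4, −0.097 to 0.037 for Itga6 and −0.033 to 0.15 for Itgb3. Between the uracil doses they ranged from −0.31 to 0.062 for Itga1, −0.071 to 0.28 for Itga3, −0.11 to 0.074 for Itga4, −0.045 to 0.025 for Itga6, −0.15 to 0.094 for Itga8, −0.021 to 0.13 for Itga11, −0.12 to 0.099 for Itgav and −0.049 to 0.16 for Itgb3.

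For the replicate number, Itga1, Itga3, Itga8, Itga11 and Itgb3 passed in 25 of 25 settings each, with adjusted p up to 0.0023 (Itgb3, edgeR). Itgb5 passed in 11, Itgav in 6, Itga4 in 5, Itga6 in 1 and Itgb8 in 0. The number of genes past the threshold was 2989 with DESeq2, 2890 without the 3 libraries, 3287 without 2, and 1272 to 3498 when 1 library was left out, the highest without control number 1 and 3271 without control number 6. The cause was not tested.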
